A study of Malus hupehensis with 9 samples.

Results

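A set of 140 genes, out of 39951 gene identifiers measured, had more RNA in the phloem of both A1d and QZ1 than in that of WT. A1d is a mutant of Malus hupehensis, a crab apple used as a rootstock, that is only partly insensitive to gibberellin. QZ1 is a columnar hybrid whose mother was M. hupehensis and whose father was the columnar apple line CO (Malus × domestica), and WT, named PYTC in the labels, is M. hupehensis itself. All 9 libraries, 3 of each rootstock, came from phloem sampled at bud break. Neither the mutated gene of A1d nor the origin of the mutant is stated in the labels, and the series text is unclear on whether replicates were separate trees, so any test measures the spread between these libraries only.

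Phloem is the tissue of the bark that carries sugars, amino acids and signalling molecules between leaves, buds and roots. At bud break stored reserves move through it to the growing shoots. Gibberellins are plant hormones that promote stem elongation and growth out of dormancy, by way of the breakdown of DELLA repressor proteins, and plants that respond poorly to them are often short. Columnar apple trees have an upright stem with short internodes and few long side branches, a trait that maps to chromosome 10.

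The members were chosen on the values that are described here. A level is given as FPKM (fragments counted for a gene, divided by its length and by the library total), or as log2(FPKM + 1), on which the change of low genes is understated. A gene was taken if its lowest log2(FPKM + 1) over A1d replicates 2 and 3 and the 3 QZ1 libraries was at least 1 above the highest of the 3 WT libraries, and if the means of A1d replicates 2 and 3 and of QZ1 differed by under 0.8. Identifiers MD10G1170000 to MD10G1199999, on chromosome 10 near the columnar trait, were left out, and 0 genes there met the other conditions. Of all 26510 genes tested, meaning those with at least 1 FPKM in at least 3 of the 9 libraries, 186 (0.702%) passed the first condition. QZ1 was higher than A1d by 0.8 or more in 35 of these 186 and A1d was higher in 11, which left the 140. Differences between the groups that chose the members carry no test. The deposited values pair no identifier with a gene name or product, so roles of single genes are not given, and neither the phloem label nor any pathway could be checked against marker genes.

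Library totals were 15684510 to 18022986 reads. A1d replicate 1, which the rule does not use, stood apart from the other 8 libraries. It listed 18107 of all identifiers at 0, where the others listed 7183 to 9029, and genes with 1 to 5 reads made up only 2.48% of those it detected, where they made up 9.98 to 11.7% in the rest. Its values stand beside those of A1d replicates 2 and 3 wherever single libraries are given, and the main counts and differences of A1d are given with and without it.

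Over the 140 members, levels were moderate in A1d and QZ1 and lower in WT. The median level was 8.61, 9.14 and 9.55 FPKM in A1d replicates 1, 2 and 3 and 10.5, 9.32 and 9.72 FPKM in the QZ1 libraries, against 0.660, 0.653 and 0.558 FPKM in the WT libraries. Averaged over A1d replicates 2 and 3 and QZ1, 72 members were under 10 FPKM, 53 were at 10 to under 50 FPKM, and 15 reached 50 FPKM or more. The median difference from WT on the log2(FPKM + 1) scale was 2.28 in A1d replicates 2 and 3 (range 1.14 to 5.30) and 2.36 in QZ1 (range 1.204 to 5.78), beside medians of -0.07 and -0.10 over all tested genes. With A1d replicate 1 in the A1d mean the median difference was 2.09 (range 0.01 to 5.39), beside -0.16 over all tested genes. The gap between the lowest of the 5 libraries and the highest WT library had a median of 1.47 and reached 4.49. These differences were fixed by the rule and are a description. In bulk tissue, more cells that express a gene and more RNA per cell cannot be told apart.

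**Figure D1:**
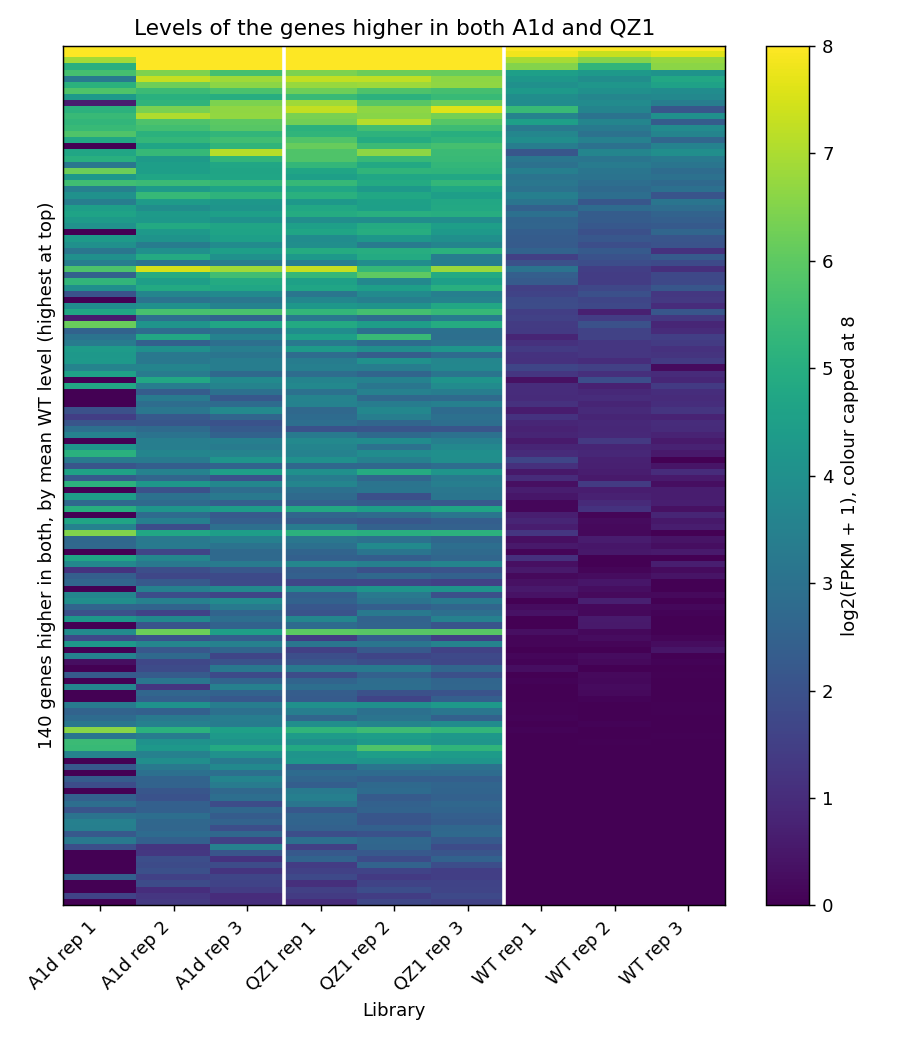
Levels of the 140 members, 1 row each, in the 9 libraries, as log2(FPKM + 1) with the colour capped at 8, and rows ordered by mean WT level. The WT columns darken to 0 in the lower rows, where A1d replicates 2 and 3 and QZ1 keep a level, and A1d replicate 1 has single dark cells at the 28 members it lists at 0.

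By their level in WT the members ran from no counted read to abundant. In 26 no read was found in any WT library, 14 averaged up to 0.1 FPKM there, 41 above 0.1 and up to 1 FPKM, 44 above 1 and up to 10 FPKM, and 15 above 10 FPKM. For the 26 without a WT read the WT group was set to a floor of 3 reads in all, against which A1d replicates 2 and 3 were at least 13.6 to 213-fold higher (median 77.8) and QZ1 at least 10.3 to 358-fold higher (median 90.6). Over all 3 A1d libraries that bound was 9.4 to 259-fold (median 63.25). Another 16 members had 1 to 3 WT reads in all. These floors cover counting error only, since PCR copies of 1 molecule are counted as several reads.

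**Figure D2:**
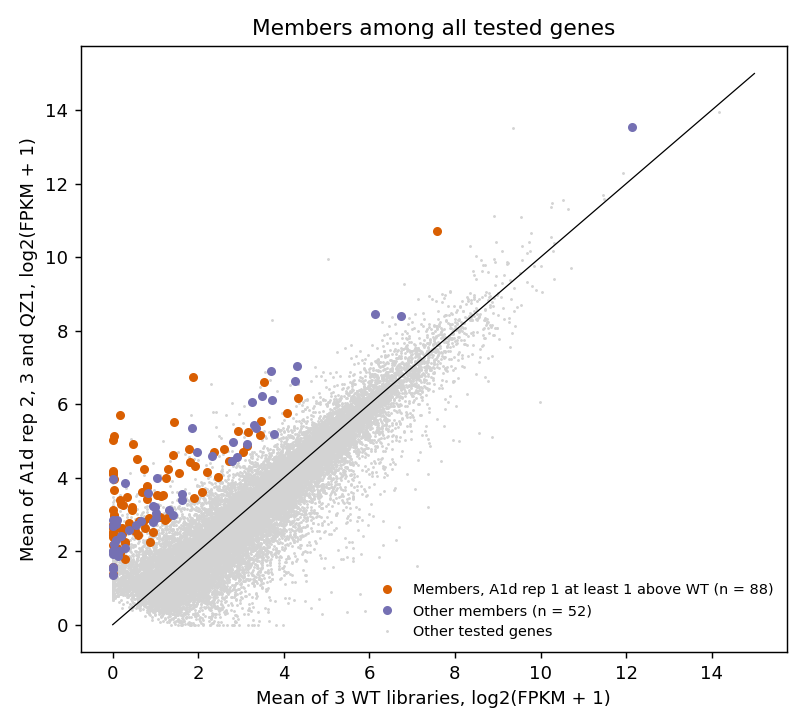
Mean level of each tested gene in A1d replicates 2 and 3 and QZ1 (vertical) against its mean in the 3 WT libraries (horizontal), both as log2(FPKM + 1), with the line of equal levels. Members lie above the line, many of them at a WT level near 0, and their colour separates the 88 members that were also at least 1 above WT in A1d replicate 1 from the other 52.

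The most abundant member was MD12G1141500 (chromosome 12 by its identifier, 794 bases by the steps of its values). It had 3247, 11179 and 12016 FPKM in A1d replicates 1, 2 and 3, then 12929, 12544 and 11567 FPKM in QZ1, against 4987, 3760 and 4994 FPKM in WT. A1d replicates 2 and 3 and QZ1 lay close together and well above WT, whereas A1d replicate 1 lay below all 3 WT libraries. This gene alone took 0.258, 0.888 and 0.954% of the reads of A1d replicates 1, 2 and 3 and 0.918 to 1.03% of those of QZ1, against 0.299 to 0.397% in WT. It ranked 2 or 3 by FPKM in every library. Its log2 difference from WT was 1.35 for A1d replicates 2 and 3, only 0.74 for all 3 A1d libraries, and 1.44 for QZ1. Over A1d replicates 2 and 3 and QZ1 together it was 1.41, but 1.09 with A1d replicate 1 added. The 1.41 became 1.37 under TPM and 1.47 under median-of-ratios scaling. Under quantile normalization it was 0.20. That scaling sets a value by the rank of the gene alone, so it cannot show the size of this difference. The other 139 members together held 0.504 to 0.539% of the reads in the 3 A1d libraries and 0.642 to 0.778% in QZ1, against 0.0888 to 0.117% in WT.

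MD02G1140000 (chromosome 2) came next, and its A1d and QZ1 libraries were all clear of WT. It had 1572, 1339 and 1074 FPKM in A1d, then 2519, 1541 and 2312 FPKM in QZ1, against 224, 160 and 194 FPKM in WT. It averaged 1207 ± 188 FPKM in A1d replicates 2 and 3 (SD, n = 2) and 2124 ± 515 FPKM in QZ1, against 193 ± 32.0 FPKM in WT (SD, n = 3 each). Over all 3 A1d libraries its mean was 1329 ± 249 FPKM (SD, n = 3). On the log2 scale the mean of A1d replicates 2 and 3 was 0.79 below the QZ1 mean, just inside the limit of 0.8. The mean of all 3 A1d libraries was 0.66 below it.

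MD02G1155900, MD16G1202300 and MD16G1102100 completed the 5 most abundant members, and none of them was raised in A1d replicate 1. MD02G1155900 had 32.2, 272 and 431 FPKM in A1d and 408, 311 and 361 FPKM in QZ1, against 90.3, 36.4 and 97.7 FPKM in WT. MD16G1202300 had 118, 250.0 and 249.7 FPKM in A1d and 417, 418 and 382 FPKM in QZ1, against 122, 91.4 and 106 FPKM in WT. A1d replicate 1 was below every WT library in MD02G1155900 and below WT replicate 1 only in MD16G1202300. MD16G1102100 had 8.76, 157 and 114 FPKM in A1d and 152, 149 and 97.7 FPKM in QZ1, against 17.6, 14.05 and 26.8 FPKM in WT, with A1d replicate 1 under all of WT. The next gene without a rise there was MD11G1224800, at 34.4, 83.4 and 99.96 FPKM in A1d and 154, 98.3 and 195 FPKM in QZ1, against 40.7, 11.1 and 3.41 FPKM in WT. In that gene WT replicate 1 was far above the other WT libraries.

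The members with the largest gaps had few or no counted reads in WT and middle levels in the others. MD11G1104800 (chromosome 11) had 93.7, 33.8 and 22.5 FPKM in A1d and 36.8, 44.1 and 37.3 FPKM in QZ1, against 0.0468, 0 and 0 FPKM in WT. A single WT read stood against 1277 reads in A1d replicates 2 and 3, a ratio of 1790 after scaling by the library totals (95% counting interval 321 to 70800), and against 2683 reads in QZ1, a ratio of 2510 (449 to 99000). With all 3 A1d libraries the A1d ratio was 3060 (549 to 121000). MD13G1075900 (chromosome 13) was also at 1 WT read, and it was one of the steadiest members. It had 43.0, 16.1 and 16.3 FPKM in A1d and 15.2, 18.5 and 17.02 FPKM in QZ1, against 0, 0.0278 and 0 FPKM in WT. Its SD over A1d replicates 2 and 3 and QZ1 was 0.10 on the log2 scale.

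MD08G1143900 (chromosome 8) had no WT read at all. It had 40.8, 18.4 and 28.9 FPKM in A1d and 27.9, 55.0 and 36.4 FPKM in QZ1, which is at least 213-fold higher in A1d replicates 2 and 3 and at least 358-fold higher in QZ1 than that floor of 3 reads. MD05G1135300 (chromosome 5) was uneven in A1d, with 13.5, 72.7 and 22.5 FPKM, and steady in QZ1, with 62.2, 59.2 and 60.2 FPKM, against 0.256, 0.130 and 0 FPKM in WT. All 4 of these genes were raised in all 3 A1d libraries, so that no A1d library overlapped WT.

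**Figure D3:**
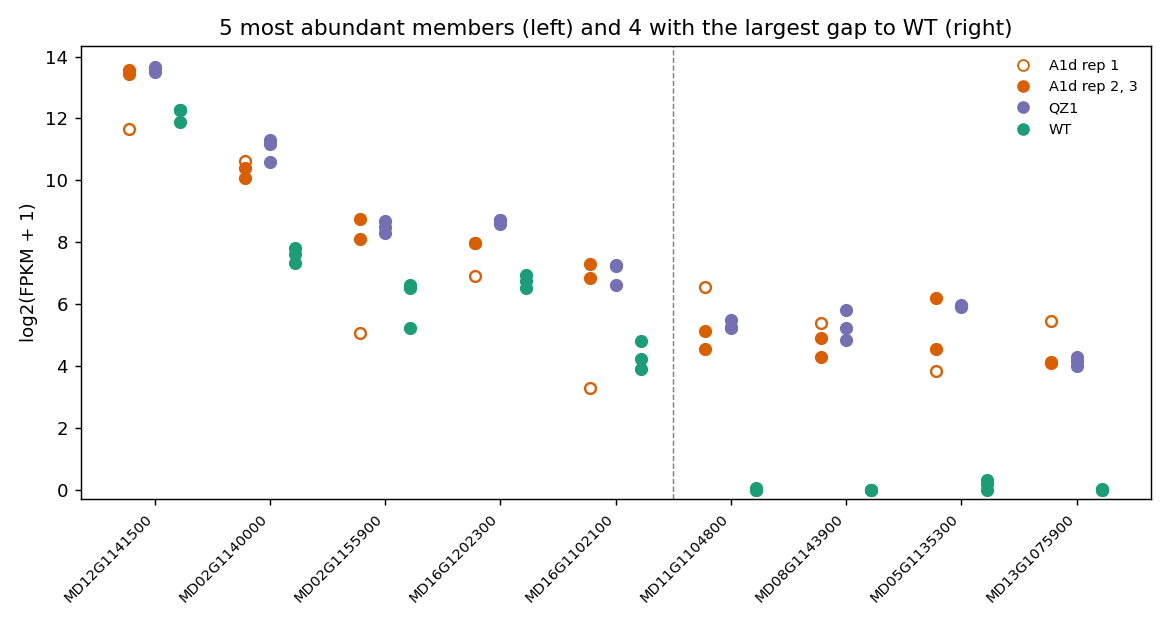
Level of the 5 most abundant members (left of the dashed line) and of the 4 with the largest gap to WT (right), as log2(FPKM + 1), 1 point a library, with A1d replicate 1 as an open circle. Among the abundant genes A1d replicate 1 lies beside or under WT in all but MD02G1140000, and among the large-gap genes it lies above WT in all 4.

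The set has no sharp edge. Just inside the gap limit of 1 were MD04G1062200 and MD13G1205000, at 1.0045 each, and MD07G1085400, at 1.01. Just outside were MD02G1203300 at 0.99, MD03G1281600 at 0.99 and MD02G1007600 at 0.99. On the limit of 0.8 between the means of A1d replicates 2 and 3 and of QZ1, MD02G1140000 (-0.79), MD05G1006300 (-0.78) and MD07G1266800 (-0.78) were the last inside, and MD06G1092400 (-0.80), MD05G1005200 (-0.81) and MD02G1276500 (-0.81) the first outside. All 6 genes at this limit were lower in A1d than in QZ1.

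Within the set A1d tended to the lower side of QZ1. The mean of A1d replicates 2 and 3 was below that of QZ1 in 87 members and above it in 53, with a median difference of -0.19, which the rule kept within 0.8. With A1d replicate 1 in the A1d mean, 91 were below and 49 above. A1d replicate 2 was the lowest of the 5 libraries in 47 members, A1d replicate 3 in 29, and the QZ1 libraries in 22, 26 and 16. The rule therefore rests most on A1d replicate 2: without it 378 genes would pass, 123 of them from the 140, and without A1d replicate 3 144 would pass, 116 of them members. The SD over the 5 libraries had a median of 0.34 (range 0.07 to 1.0006), beside 0.31 over all tested genes. The 8 steadiest of the members with a mean of at least 5 on the log2(FPKM + 1) scale had SDs of 0.09 to 0.28, and MD12G1141500 was the steadiest of these.

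A1d replicate 1 gives the only values of the members that the rule did not use. In it 88 of the 140 members (62.9%) were at least 1 log2 unit above the highest WT library, against 7.48% of all tested genes. Another 16 members were above the highest WT library by less, and 36 were at or below it, 28 of these at 0. Those 28 are 20.0% of the members, close to the 21.3% of all tested genes that were at 0 there. Of the 140, 71 lay at or above the lowest of A1d replicates 2 and 3 and QZ1, and 39 lay above the highest of these 5. The median difference from the highest WT library was 1.75 for the members, against -0.63 for all tested genes. The members were picked for low WT values, which the tested genes as a whole were not. Among 305 tested genes that were higher in QZ1 only, with all QZ1 libraries at least 1 above every library of WT and of A1d replicates 2 and 3, the WT values were bounded in the same way, and the values of A1d replicates 2 and 3 were chosen to be low too. There 28 (9.18%) were at least 1 above WT in A1d replicate 1, and 200 (65.6%) were at 0. Among 65 tested genes that were higher in A1d replicates 2 and 3 only, chosen the same way against WT and QZ1, 44 (67.7%) were at least 1 above WT in A1d replicate 1 and 12 (18.5%) were at 0, with a median difference of 1.70. The list of 65 held 77 genes before the condition of at least 1 FPKM in 3 libraries. Its rule puts only A1d replicates 2 and 3 at 1 FPKM or more. The genes dropped were under 1 FPKM in A1d replicate 1, so none was 1 above WT there, and dropping them raised the share. That condition dropped no member and none of the 305. The share in the members was close to that in genes chosen on A1d alone, and nothing particular to the members is read from it. These contrasts are between lists of genes in 1 library and have no test.

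**Figure D4:**
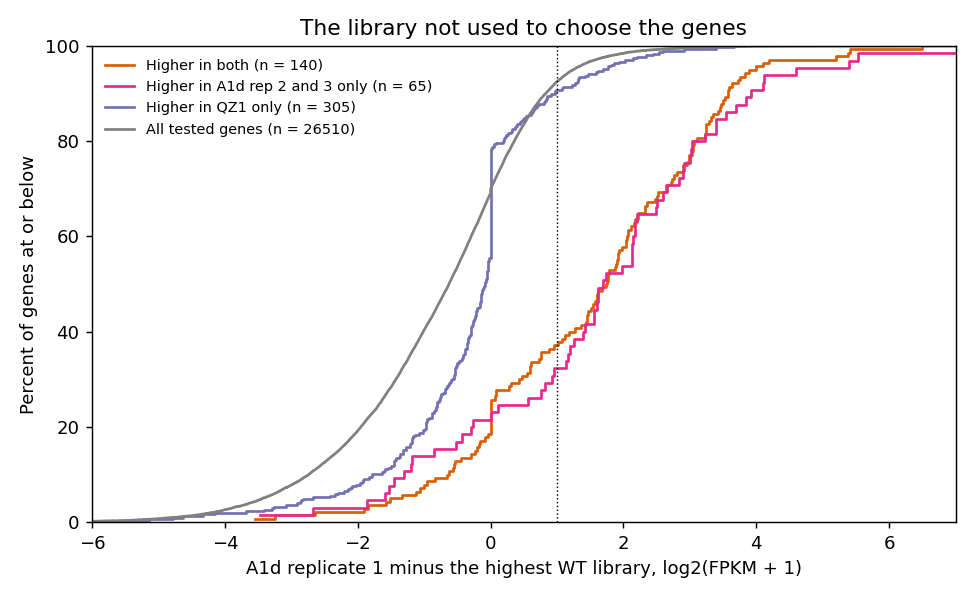
Cumulative percent of genes by the difference of A1d replicate 1 from the highest WT library on the log2(FPKM + 1) scale, for the 140 members, for 65 genes higher in A1d replicates 2 and 3 only, for 305 genes higher in QZ1 only and for the 26510 tested genes; the dotted line marks 1. The curves of the members and of the genes higher in A1d only run close together, with 62.9% and 67.7% at or past the line. That was so for 9.18% of the genes higher in QZ1 only and 7.48% of all tested genes. The 65 genes passed a filter that their level in A1d replicate 1 helped to meet, which raised their share.

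The 52 members that were not at least 1 above WT in A1d replicate 1 had a median length of 1043.5 bases and a median 5-library mean of 8.66 FPKM, against 1421 bases and 10.01 FPKM in the 88 that were. At 0 in that library were 11 of the members under 5 FPKM (34.4%, beside 41.8% of tested genes at such levels), 11 of those from 5 to under 10 FPKM (27.5%, beside 16.1%), 6 of those from 10 to under 50 FPKM (11.3%, beside 4.997%), and 0 of the 15 from 50 FPKM (beside 1.31%). The 28 members at 0 had a median length of 766 bases and the 112 others one of 1411 bases. At the top of the range, 6 of the 15 members of at least 50 FPKM (40.0%) were at least 1 above WT in A1d replicate 1, against 82 of the 125 lower ones (65.6%), and of the 5 most abundant 1 was. By WT level the shares were 16 of 26 members (61.5%) with no WT read, 40 of 55 (72.7%) with a WT mean up to 1 FPKM, and 32 of 59 (54.2%) above that. The part of library quality in these values was not tested.

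Fitted over the whole table, limma (group means of all 9 libraries, Benjamini-Hochberg adjusted p under 0.05) called 90 of the 140 members higher in A1d than in WT, where 1.4% of all tested genes were called higher. Without A1d replicate 1 it called 132 of them, where 2.61% of all tested genes were called higher. For QZ1 against WT it called 120 higher, where 5.05% of all tested genes were called higher, and 139 without A1d replicate 1, where 11% of all tested genes were. Of the 5 most abundant members, MD12G1141500 was called in neither contrast over all 9 libraries (limma adjusted p 0.738 for A1d and 0.519 for QZ1). Nor were MD02G1155900 (0.431 and 0.107) and MD16G1102100 (0.353 and 0.0831). MD16G1202300 was called for QZ1 only, and MD02G1140000 for both. All 140 passed the filter on low values, as the gap of 1 puts A1d replicates 2 and 3 and QZ1 at 1 FPKM or more, and the rule used both contrasts, which share the WT libraries, so these counts are no support for the set. Between QZ1 and A1d limma called 0 members, where 4.29% of all tested genes were called. At an unadjusted p under 0.05 there were 24 members, and the share of all tested genes at that threshold was not counted, so nothing is read from it. Used on reads, limma voom called 0 members, where 2.24% of all tested genes were called. The rule itself keeps the difference between QZ1 and A1d small.

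Members lay on each of the 17 chromosomes, as read from the identifiers (another 5 began with MD00, which names none), and were most frequent on chromosome 11. That chromosome held 19 members (13.6% of the set, beside 5.97% of tested genes), and chromosome 16 held 14, beside 5.62% of tested genes. Chromosome 10 held 3 (2.14%, beside 6.38%), and the range left out by the rule there would have added 0. Chromosome 15 held 8 (5.71%, beside 9.32%). The median length of the members was 1276 bases, against 1536 bases for the other tested genes.

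Members also lay beside each other. Of the 140, 28 (20.0%) had another member next to them with at most 2 identifiers between, in 2 groups of 3 and 11 groups of 2. The same share was 19.1% in 183 genes lower in both A1d and QZ1 by the mirror of the rule, and 28.2% in the 305 genes higher in QZ1 only. These shares depend on the size of a list, so they give no order between the lists. The nearest tested neighbours that were not members do not depend on that size. Of 250 such neighbours, 48 (19.2%) had A1d replicates 2 and 3 and QZ1 all above the highest WT library, against 8.67% of tested genes outside the set (9.16% of all tested genes with the members counted). All of these libraries were below the lowest WT library in 25 of the 250 neighbours, against 11.2% of the tested genes outside the set. The median difference of the 5 libraries from WT was 0.07 in the neighbours and -0.09 in tested genes outside the set. The counting tool is not stated, so reads of overlapping or near-identical neighbours may have been shared between identifiers, and its part in these values was not tested.

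Both groups of 3 lay on chromosome 11. The first held MD11G1104500, MD11G1104800 and MD11G1104900, with MD11G1104600 and MD11G1104700 between them. MD11G1104500 had 25.3, 11.6 and 5.64 FPKM in A1d and 4.45, 4.28 and 5.25 FPKM in QZ1, against 1.18, 0 and 0 FPKM in WT, and MD11G1104900 had 19.2, 8.27 and 9.46 FPKM in A1d and 9.19, 15.4 and 11.8 FPKM in QZ1, against 1.22, 1.003 and 1.605 FPKM in WT. A1d replicate 1 was the highest library for all 3 members. Between them, MD11G1104600 had 3.76, 0.254 and 0.234 FPKM in A1d and 0.490, 0.270 and 0.595 FPKM in QZ1, against 0.250, 0.253 and 0.212 FPKM in WT, so that only A1d replicate 1 was far above WT, and MD11G1104700 had at most 0.183 FPKM in any library. The gene that follows, MD11G1105000, had 2.62, 1.05 and 2.001 FPKM in A1d and 2.23, 0.969 and 2.15 FPKM in QZ1, against 0.148, 0 and 0 FPKM in WT, above WT in all 6 libraries, with a smallest gap under the limit of 1.

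The second group held MD11G1268400, MD11G1268500 and MD11G1268600, which follow each other directly. MD11G1268400 had 70.8, 16.5 and 25.9 FPKM in A1d and 27.9, 21.1 and 29.6 FPKM in QZ1, against 1.596, 2.94 and 0.802 FPKM in WT. MD11G1268500 had 31.4, 16.9 and 20.4 FPKM in A1d and 27.5, 21.4 and 24.7 FPKM in QZ1, against 0.114, 1.28 and 0.287 FPKM in WT. MD11G1268600 had 45.3, 42.6 and 38.9 FPKM in A1d and 39.7, 28.8 and 38.1 FPKM in QZ1, against 8.09, 6.36 and 5.63 FPKM in WT. A1d and QZ1 overlapped in these genes and neither overlapped WT. The gene before them, MD11G1268300, had 12.6, 4.88 and 3.30 FPKM in A1d and 6.53, 5.57 and 9.98 FPKM in QZ1, against 3.001, 2.65 and 6.69 FPKM in WT, where the groups overlapped.

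Other neighbouring members are given as examples that were picked out after their values were seen. The rule fixed their split from WT in A1d replicates 2 and 3 and QZ1. A1d replicate 1 was also above WT in the examples, but not in every group. MD16G1144200, MD08G1117400 and MD09G1106200, in other groups of 2, were at 0 there. Over all groups, 23 of the 28 members were at least 1 above WT in A1d replicate 1. On chromosome 15, MD15G1112300 had 9.95, 5.21 and 2.79 FPKM in A1d and 4.57, 4.42 and 5.37 FPKM in QZ1, against 0 FPKM in each WT library. Its neighbour MD15G1112400 had 8.80, 15.9 and 9.50 FPKM in A1d and 15.1, 14.9 and 19.2 FPKM in QZ1, against 0.0294, 0 and 0.0296 FPKM in WT. The gene that follows, MD15G1112500, was no member, since its mean over A1d replicates 2 and 3 was 0.88 above its QZ1 mean. Yet it too was at 0 FPKM in each WT library, with 13.7, 25.2 and 15.8 FPKM in A1d and 11.2, 9.99 and 9.99 FPKM in QZ1. Here 3 genes in a row were expressed in all 6 libraries of A1d and QZ1 and had next to no reads in WT.

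On chromosome 16, MD16G1117700 had 32.6, 11.5 and 11.1 FPKM in A1d and 10.8, 13.95 and 14.9 FPKM in QZ1, against 0.960, 0.846 and 0.457 FPKM in WT. MD16G1117800 had 87.6, 26.3 and 21.4 FPKM in A1d and 34.3, 32.2 and 34.6 FPKM in QZ1, against 1.42, 0.131 and 0 FPKM in WT. For both genes A1d replicate 1 was the highest of all 9 libraries. MD16G1117600 and MD16G1117900, on either side of them, were expressed in every library. MD16G1117600 had 14.9 to 64.5 FPKM in A1d and 56.2 to 94.9 FPKM in QZ1, against 20.9 to 61.0 FPKM in WT, and MD16G1117900 had 6.85 to 14.2 FPKM in A1d and 10.9 to 12.6 FPKM in QZ1, against 7.99 to 9.08 FPKM in WT. In these flanking genes A1d overlapped WT.

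**Figure D5:**
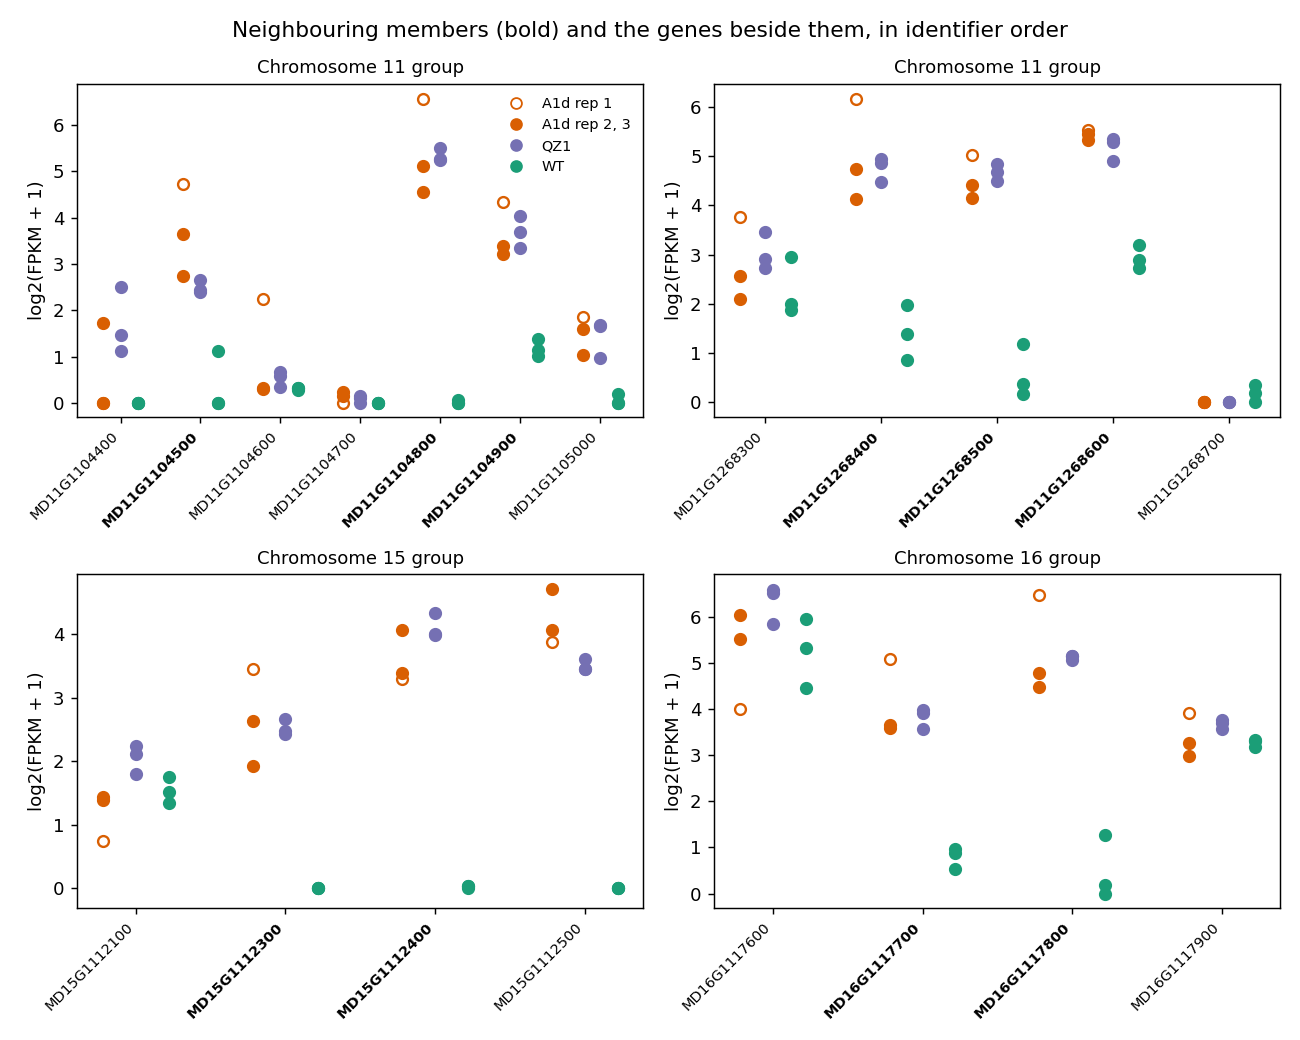
Levels of 4 groups of neighbouring members (bold) and of the genes between and beside them in identifier order, as log2(FPKM + 1), 1 point a library, with A1d replicate 1 as an open circle. In each group the bold genes have A1d replicates 2 and 3 and QZ1 clear of WT, which the rule fixed. MD15G1112500 and MD11G1105000, which are not members, also lie above WT in all A1d and QZ1 libraries.

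In members that lie in such groups, A1d replicate 1 was at least 1 above the highest WT library in 23 of 28, against 65 of the 112 members that stand alone. The 28 are not independent of each other, and this difference has no test.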

How the data were processed

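The values are FPKM deposited by the authors in 1 table of 39951 genes and 9 libraries, 1 column a library; the unit comes from the table's name. Per the labels' protocols, polyadenylated RNA went into TruSeq Stranded mRNA libraries; the submitters' processing notes name Trimmomatic. For the aligner, counter, genome build and annotation: not given in the sources used here. Chromosomes are read from identifiers of the form used for the GDDH13 apple genome.

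The size of the smallest steps between FPKM values gave back library totals, gene lengths and whole reads (or read pairs, which cannot be told from reads here). This held for all 37548 genes above 0, to 0.0001 reads plus file rounding. A gene whose reads share a divisor in every library would come out with too few reads and a wrong length.

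Levels were log2(FPKM + 1). limma 3.58.1 (R 4.3.3; trend, Benjamini-Hochberg over 26510 genes) was tested on simulated data. Python 3.11.15, pandas 2.3.3 and scipy 1.17.1 did the rest. Lists of hormone, phloem and stress genes were planned and not used, as genes have no names here. The members, lists and rules were chosen with earlier results of these data known. Named are the 5 members with the highest mean, the 4 with the largest gap, those at the limits, groups of 3 neighbours and up to 5 members without a rise in A1d replicate 1; other names are said to be chosen later.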

Additional observations from a re-analysis of the deposited data

How the results depend on the processing

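The number of members followed the limits, the pseudocount and the choice of A1d libraries more than the scaling. It was 279 with a pseudocount of 0.1 (133 of the 140 among them), 464 and 40 with gap limits of 0.5 and 2, 76 with a limit of 0.4 on the means, and 88 with A1d replicate 1 also used (80 of the 140 among them); it stayed within 1.5 times under TPM, median-of-ratios and quantile scaling (167, 141 and 162). Leaving out 1 of the 8 libraries gave 144 to 378, the highest without A1d replicate 2. The 88 members raised in A1d replicate 1 became 87 to 93 over the scalings and the pseudocount, and 89 to 92 without 1 WT library. Members called for A1d against WT were 47 with only the 6 libraries compared, 139 with library weights and 49 with voom, beside 0.37, 6.36 and 0.66% of all tested genes called higher, and 61 to 132 without 1 library, beside 0.472 to 2.61%. For QZ1 against WT they were 82 to 139 without 1 library, beside 2.15 to 11%. For QZ1 against A1d they were 7 with library weights, beside 15.8% of all tested genes called, and 0 to 2 without 1 library, beside 1.34 to 6.09%. With the replicate block, 76, 112 and 0 members were called for A1d against WT, QZ1 against WT and QZ1 against A1d, beside 0.683, 3.69 and 2.18% of all tested genes. Deviations of libraries of the same number from their group means had r of -0.18 to 0.04 across genes, against -0.05 to 0.21 for other numbers. Deviations from a mean of 3 libraries sum to 0, so these r values are not independent of each other. Whether libraries of the same number shared a batch was not tested. Of 338 recomputed differences of the 26 genes named by the rule, 0 changed sign and 25 moved by more than the spread, 16 of these with a pseudocount of 0.1. The cause of these shifts was not tested. Depth limits the members with 0 to 3 WT reads, whose fold is a bound or an interval.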
